A study of Mus musculus with 10 samples.

Results

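The genes described are the subunits, assembly chaperones and activators of the proteasome, with their mRNA levels in GFP+ leukaemia cells set against those in GFP-CD11b+ myeloid cells from mouse bone marrow. They were taken by name, as every row whose symbol begins with Psm, then a letter from a to g, then a digit, which gave 39 of the 10141 genes in the table. One of them, Psmc3ip, encodes a meiotic recombination factor named for its binding to a proteasome ATPase and is not a subunit, so the counts that include it are also given without it. The other 38 belong to a list of 49 mouse proteasome genes. The 11 without an entry, which are Psma2, Psmb3, Psmb4, Psmb7, Psmb8, Psmb9, Psmb11, Psmd4, Psmd13, Psme1 and Psme2, are not analysed here.

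Leukaemia was produced by injecting thawed cells that carry the MLL-AF9 fusion oncogene and a GFP reporter through the tail vein into recipient CD45.1 mice, and marrow was taken once GFP+ cells made up 2% of peripheral blood. There were 5 libraries of GFP+ leukaemia cells and 5 of GFP-CD11b+ cells, the non-leukaemic myeloid cells of the leukaemic marrow. All 10 libraries carry the genotype label MLL-AF9/GFP and the same leukaemia cell type label, so the titles gave the groups. The labels describe a flow cytometry sort for both populations, while the design text describes a magnetic selection of CD45.2-CD11b+ cells. They do not say whether the libraries of a group came from separate mice, or whether the injected cells were 1 clone, so p-values here reflect only how far these libraries scatter, which may be technical. Leukaemia and a less mature stage of the cells cannot be told apart in this design.

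The proteasome breaks down proteins tagged with ubiquitin. Its barrel-shaped 20S core holds the cutting sites of the beta subunits inside rings of alpha subunits that form the gate, and the 19S regulatory particle binds, unfolds and feeds in the substrate with a ring of ATPases. Interferon induces alternative catalytic subunits that form the immunoproteasome, which supplies peptides to MHC class I molecules and is abundant in blood cells. Proteasome inhibitors are used against myeloma, another cancer of the blood.

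Values are normalised reads, which are reads divided by the library's size factor, recovered from the deposited log2 values. The genes of the table held 24099623 to 30879863 reads per leukaemia library and 24713215 to 32248423 per myeloid library. The groups carried the marks of their labels. For comparison, 49.1% of all genes tested were higher in leukaemia and 50.7% lower. The 10 progenitor and MLL-AF9 programme genes were all higher in leukaemia, with summed levels of 259921 to 327506 in leukaemia against 24477 to 54152 normalised reads in myeloid libraries, and the 12 neutrophil genes were all lower (76884 to 80617 in leukaemia against 3045938 to 4831917 in myeloid libraries). Monocyte genes were lower in 5 of 5 cases (38648 to 73306 in leukaemia against 89342 to 163092 in myeloid libraries), and macrophage genes in 2 of 4, with 1 higher (5331 to 7071 in leukaemia against 12512 to 15907 in myeloid libraries). The dendritic cell and MHC class II genes, lower in 8 of 8, summed to 1043 to 2439 in leukaemia. In myeloid replicates 2 and 4 they summed to 5968 and 6261, and in the other myeloid libraries to between 40703 and 62622. Those 2 libraries also had the highest neutrophil sums (4831917 and 4048088, against 3045938 to 3355356 in the other myeloid libraries) and the highest macrophage sums. Their monocyte sums were the lowest (89342 and 130968, against 157182 to 163092). The proteasome results were therefore also taken without those 2 libraries. Of the B cell, T and NK cell and erythroid lists 1, 3 and 0 genes were tested, with 1, 1 and 0 higher and 0, 2 and 0 lower. These lists summed to at most 591, 5874 and 39.1 normalised reads in a leukaemia library and 2249, 5491 and 107 in a myeloid one, and Cd3g was listed at 0 in each leukaemia library. The T and NK sum of 5874, in leukaemia replicate 4, was nearly all Nkg7 (5866), the 1 higher gene of that list. Its 2 lower genes, Klrb1c and Gzma, averaged 20.6 and 0.575 normalised reads in leukaemia, against 542 and 1098 in myeloid libraries. The part of cell composition in the proteasome values was not tested, and in sorted bulk samples fewer cells of a type cannot be told apart from less RNA per cell.

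Proteasome genes were mostly higher in leukaemia, by small factors with the authors' size factors. Of 39 members, 38 lay over the filter on low values, Psmc3ip among them. Of these, 34 (89.5%) were higher in leukaemia at an adjusted p under 0.05, against 49.1% of all genes tested, and 4 were lower, against 50.7% (limma, Benjamini-Hochberg adjustment over all 8079 genes tested). For all genes 99.8% passed in 1 direction or the other, in a table that holds genes selected for a difference, so the direction and size of a member's difference say more than its passing. Without Psmc3ip, 33 of 37 (89.2%) were higher and 4 lower. The 4 lower members, Psmd8, Psmd10, Psme4 and Psme2b, were lower with the authors' size factors. Under total scaling, in which voom used each library's sum over the table in place of the authors' size factor, they came out above 0, at log2 folds of 0.14 to 0.41, and below the median of all genes, which that scaling raised to 0.43. The median log2 difference was 0.37 over the members and -0.16 over all genes tested. The median fold was 1.38 in leukaemia over myeloid cells, with the authors' size factors. The size depended on the scaling. The members' median was 0.66 after quantile normalisation (0.09 for all genes) and 1.1 under total scaling (0.43 for all genes). The 5 leukaemia libraries all lay above the 5 myeloid libraries for 26 members (68.4%, against 42.4% of all genes) and all below them for 2 (against 44.3%). Without Psmc3ip these counts were 25 and 2, and the median log2 difference was 0.36. The groups were apart in either direction for 86.8% of all genes.

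Summed over its members in the table, the 20S core averaged 36011 ± 2620.4 normalised reads per leukaemia library and 27138 ± 1965 per myeloid library (SD, n = 5 each), from 12 genes. The 19S particle gave 49732 ± 1584 in leukaemia and 36407 ± 2173 in myeloid cells, from 15 genes taken by name, without the lid subunit Sem1. Both sums were higher in each leukaemia library than in any myeloid library. As a share of all reads of the table, the 39 members, Psmc3ip included, took 0.438% to 0.482% in leukaemia libraries and 0.198% to 0.231% in myeloid libraries. The totals behind these shares differed as well, at 22203380.4 to 22698958 normalised reads in leukaemia libraries and 32545702 to 38114511 in myeloid libraries. In both groups replicate 2 was the library that stood highest for the most members, which was leukaemia replicate 2 for 19 and myeloid replicate 2 for 22 of the 38.

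**Figure D1:**
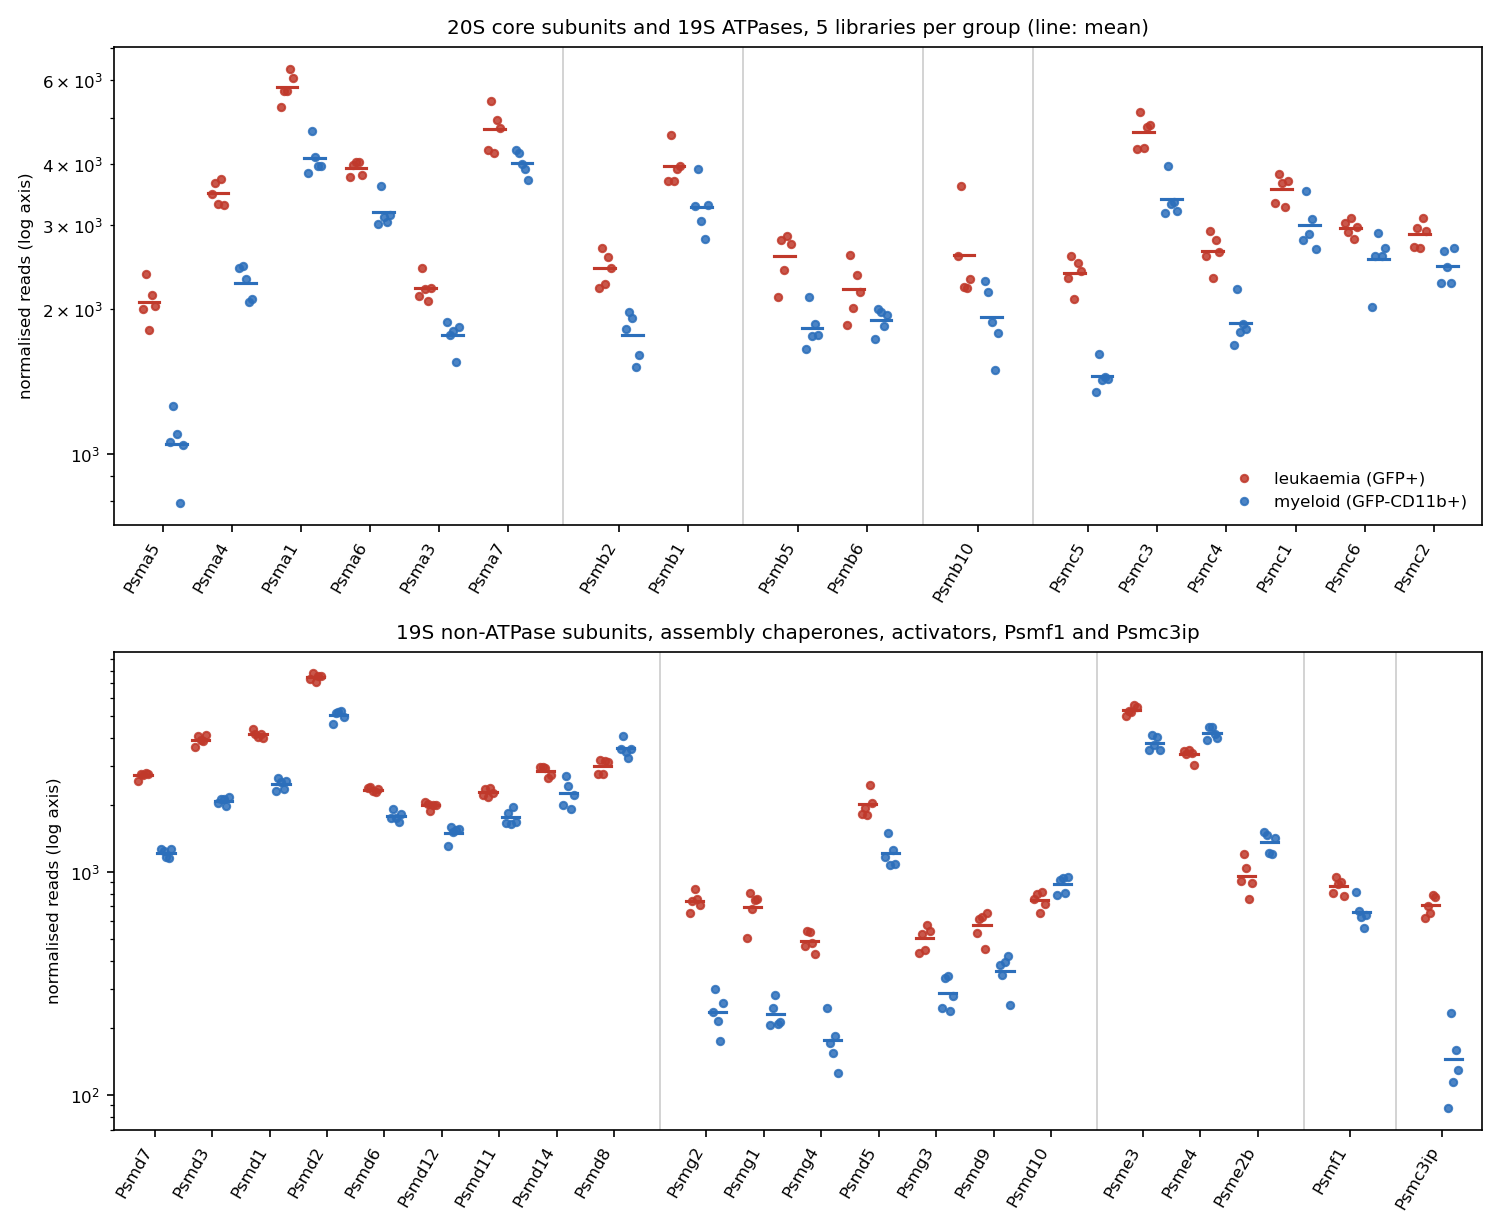
Normalised reads (log axis) of the 37 proteasome genes over the filter and of Psmc3ip, 1 point per library with a line at the mean, for 5 leukaemia libraries (red) and 5 myeloid libraries (blue), with vertical lines between role groups. Leukaemia lies higher for most genes, by the widest margin among proteasome genes for Psmg2 (3.12-fold) and Psmg1 (3.03-fold), and lower for Psmd8, Psmd10, Psme4 and Psme2b with the authors' size factors (above 0 under total scaling for all 4, and after quantile normalisation for Psmd8 and Psme4).

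Promoters are shown for 7 members, chosen after their values were seen. Psmg1, Psma5, Psmg4 and Psmd1 stand for members with large differences, Psmb5 for the site that bortezomib binds, and Psmd8 and Psme4 for the members that were lower without overlap. RefSeq (build GRCm38.p6) gave a promoter for 32 of the 39 members, and the 250 bases before the start were searched on both strands for 7 short motifs. The core bound by ETS factors, CGGAAG, stood in 15 of 32 member promoters, against 28.4% of those of genes tested and 13.8% of all. The core of the antioxidant response element, TGACNNNGC, stood in 5 of 32 member promoters, against 12.0% of those of genes tested and 10.2% of all. The CCAAT box stood in 10 of 32 member promoters, against 37.0% of those of genes tested and 34.5% of all. For the E-box CACGTG these were 4 of 32 member promoters, against 8.97% of those of genes tested and 6.05% of all. The nuclear respiratory factor core, GCGC then any 2 bases then GCGC, stood in 5 of 32 member promoters, against 12.1% of those of genes tested and 5.09% of all. The cyclic AMP response element TGACGTCA stood in 0 (against 2.96% and 1.62%), and TTCNNNGAA, the core of the interferon-gamma activated site, in 1 (against 5.88% and 7.18%). Of the 32 promoters 28 belong to higher members and 4 to lower ones, and of the lower ones 2 hold CGGAAG, 1 holds CCAAT and none holds another of the motifs. TGACGTCA and TGACNNNGC share their first letters and can overlap. These are matches of letters and not measured binding sites. The start is that of RefSeq, and GENCODE M21 places the starts of Psmd1, Psmb5, Psmd8 and Psme4 earlier, inside the stretch shown. For Psmd1 the GENCODE start is chr1:86064387, so most of its stretch, with its CGGAAG, lies within the gene by that annotation. The CGGAAG of Psmd8 also lies within its gene by that annotation (start chr7:29180701), and that of Psme4 spans the GENCODE start (chr11:30771726). The sequences run 5′ to 3′ on the gene's strand and end at the base before the start, with every motif match in capitals, and those of Psma5 and Psmg4 hold none of the motifs. Psmg1 (chr16:95990961-95991210 on the minus strand), Psma5 (chr3:108256676-108256925 on the plus strand), Psmg4 (chr13:34162714-34162963 on the plus strand), Psmd1 (chr1:86064369-86064618 on the plus strand) and Psmb5 (chr14:54617996-54618245 on the minus strand) were higher in leukaemia, and Psmd8 (chr7:29180674-29180923 on the minus strand) and Psme4 (chr11:30771525-30771774 on the plus strand) were lower with the authors' size factors.
Psmg1: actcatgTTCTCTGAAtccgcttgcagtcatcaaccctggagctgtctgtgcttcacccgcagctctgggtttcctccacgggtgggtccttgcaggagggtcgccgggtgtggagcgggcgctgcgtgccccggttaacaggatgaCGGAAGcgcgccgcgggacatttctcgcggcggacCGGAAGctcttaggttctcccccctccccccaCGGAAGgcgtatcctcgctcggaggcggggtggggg
Psma5: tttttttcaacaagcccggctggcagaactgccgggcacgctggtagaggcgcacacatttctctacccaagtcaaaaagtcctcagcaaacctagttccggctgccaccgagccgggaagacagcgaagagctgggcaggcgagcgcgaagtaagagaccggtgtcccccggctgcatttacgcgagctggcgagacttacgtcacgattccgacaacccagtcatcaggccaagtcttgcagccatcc
Psmg4: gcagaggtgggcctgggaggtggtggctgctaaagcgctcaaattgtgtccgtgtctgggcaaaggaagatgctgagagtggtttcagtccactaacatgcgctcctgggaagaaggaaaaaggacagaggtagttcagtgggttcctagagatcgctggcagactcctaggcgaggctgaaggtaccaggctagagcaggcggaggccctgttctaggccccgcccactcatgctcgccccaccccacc
Psmd1: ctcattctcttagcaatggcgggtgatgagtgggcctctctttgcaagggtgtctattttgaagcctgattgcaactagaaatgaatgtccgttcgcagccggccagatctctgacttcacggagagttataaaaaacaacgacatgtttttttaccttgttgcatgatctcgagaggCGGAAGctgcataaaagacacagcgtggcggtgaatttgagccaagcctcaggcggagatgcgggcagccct
Psmb5: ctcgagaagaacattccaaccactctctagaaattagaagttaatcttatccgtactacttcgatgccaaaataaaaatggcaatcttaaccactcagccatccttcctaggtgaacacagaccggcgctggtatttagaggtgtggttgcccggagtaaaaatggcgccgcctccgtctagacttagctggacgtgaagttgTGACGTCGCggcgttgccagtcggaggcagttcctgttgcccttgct
Psmd8: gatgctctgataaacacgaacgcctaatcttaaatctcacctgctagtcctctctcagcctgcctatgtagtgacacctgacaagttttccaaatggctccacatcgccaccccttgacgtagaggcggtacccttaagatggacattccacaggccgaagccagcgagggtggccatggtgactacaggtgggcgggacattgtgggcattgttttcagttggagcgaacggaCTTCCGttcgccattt
Psme4: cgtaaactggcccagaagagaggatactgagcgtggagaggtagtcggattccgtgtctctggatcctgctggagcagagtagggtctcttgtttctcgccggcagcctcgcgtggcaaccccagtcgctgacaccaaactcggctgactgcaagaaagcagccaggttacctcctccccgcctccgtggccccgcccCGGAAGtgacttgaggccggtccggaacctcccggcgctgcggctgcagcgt

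The alpha subunits, whose rings gate the core, were higher in all 6 cases tested, from 1.17-fold to 1.97-fold. Psma5 differed most, with 2003, 2364, 1814, 2144 and 2035 normalised reads in the leukaemia libraries, against 1059.9, 1258, 1101, 789.7 and 1044 in the myeloid libraries. The groups did not overlap, and the lowest leukaemia library was well above the highest myeloid library (log2 difference 0.74, SE 0.0824, limma adjusted p = 1.8e-06). Psma7 differed least, with 4284, 5427, 4225, 4938 and 4767 normalised reads in the leukaemia libraries, against 4285, 4223, 4017, 3910.5 and 3704 in the myeloid libraries. The groups overlapped for Psma7, although it passed (log2 difference 0.20, SE 0.0711, limma adjusted p = 0.0151). The value of Psma5 and that of Psma4 are uncertain, since each has a near-identical copy in the annotation that could share its reads. In between, Psma4 was 1.54-fold, Psma1 1.40-fold, Psma3 1.25-fold and Psma6 1.24-fold higher, each without overlap. Per kilobase of the annotated principal transcript, alpha subunit levels ranged from 778 normalised reads (Psma3) to 5173 (Psma7) in leukaemia and from 621 to 4407 in myeloid cells, for the same genes. Psma8, the testis form of an alpha subunit, lay below the filter, with 7 reads in leukaemia replicate 1 and 0 in the other leukaemia libraries, and 12, 25, 16, 18 and 19 reads in the myeloid libraries.

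The beta subunits with an entry, 2 structural, 2 constitutive catalytic and 1 of the immunoproteasome, were all higher in leukaemia. Psmb2, a subunit without a cutting site, had 2211, 2687, 2262, 2571 and 2437 normalised reads in the leukaemia libraries, against 1817, 1969, 1916, 1514 and 1609 in the myeloid libraries. The groups did not overlap (1.38-fold, log2 difference 0.37, SE 0.071, limma adjusted p = 0.000239). Psmb1, the other structural subunit tested, had 3699.9, 4608, 3686, 3910.5 and 3973 normalised reads in the leukaemia libraries, against 3282, 3909, 3046, 2794 and 3296 in the myeloid libraries. The groups overlapped, with myeloid replicate 2 above 2 of the leukaemia libraries (1.22-fold, log2 difference 0.25, SE 0.0817, limma adjusted p = 0.0102).

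Psmb5, of which the annotation also holds a near-identical copy, carries the chymotrypsin-like site, the one that the inhibitor bortezomib binds. It had 2117, 2779.6, 2415, 2842 and 2728 normalised reads in the leukaemia libraries, against 1655, 2116, 1762, 1859 and 1765 in the myeloid libraries. The groups touched without overlap, since leukaemia replicate 1 was just above myeloid replicate 2 (1.41-fold, log2 difference 0.40, SE 0.077, limma adjusted p = 0.000294). Psmb6, with the caspase-like site, had 1855, 2591, 2015, 2361 and 2175 normalised reads in the leukaemia libraries, against 1735, 2001, 1978, 1846 and 1944 in the myeloid libraries. Its groups overlapped and its difference was among the smallest of the members (1.16-fold, log2 difference 0.16, SE 0.0728, limma adjusted p = 0.0445). Psmb6 lost its call without any 1 of leukaemia replicates 2, 4 and 5 or myeloid replicates 1, 3, 4 and 5, and also without myeloid replicates 2 and 4 (adjusted p = 0.0655), with adjusted p-values between 0.0515 and 0.124 in those fits and a log2 difference of 0.11 without leukaemia replicate 2.

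Psmb10, the interferon-induced subunit with the trypsin-like site, was the immunoproteasome member in the table. It had 2576, 3609, 2222, 2217 and 2317 normalised reads in the leukaemia libraries, against 2286, 2174, 1884, 1497 and 1785 in the myeloid libraries. Leukaemia replicate 2 was highest and the groups overlapped (1.34-fold, log2 difference 0.34, SE 0.12, limma adjusted p = 0.0156), and without that library the log2 difference was 0.23. The ratio of Psmb10 to Psmb5 within a library, which does not depend on the size factor, was 1.22, 1.30, 0.920, 0.780 and 0.849 in the leukaemia libraries, against 1.38, 1.03, 1.07, 0.805 and 1.01 in the myeloid libraries. The ratio of Psmb10 to Psmb6 was 1.39, 1.39, 1.10, 0.939 and 1.06 in the leukaemia libraries, against 1.32, 1.09, 0.952, 0.811 and 0.918 in the myeloid libraries. Both ratios overlapped between the groups, with the median lower in leukaemia for the ratio to Psmb5 and higher for the ratio to Psmb6. The subunit that Psmb10 replaces in the core, Psmb7, is not analysed here, and these ratios were chosen after the values were seen.

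Interferon genes were mostly lower in leukaemia, where Psmb10 was higher. In the interferon list, 16 of 19 tested genes were lower in leukaemia (against 50.7% of all genes) and 2 higher (against 49.1%). The median log2 difference of the list was -0.93, and 10 of its genes were lower under total scaling (against 27.6% of all genes). Irf1, a factor that induces immunoproteasome genes, had 2697, 3516, 2028, 1964 and 1979.8 normalised reads in the leukaemia libraries, against 7729, 7916, 5079.9, 5534 and 5075 in the myeloid libraries. Each leukaemia library was below each myeloid library (2.57-fold lower, adjusted p = 9.47e-06), and in both groups replicates 1 and 2 were the highest, as they were for Psmb10. Jak1, a kinase of interferon receptors, was 3.37-fold and Irf7 3.39-fold lower, while Gbp3 was 2.34-fold and Ifngr1 1.57-fold higher. Without myeloid replicates 2 and 4 the log2 difference of Ifngr1 was 0.39, against 0.66 with all libraries. Of the class I processing genes 4 of 9 were higher (against 49.1% of all genes) and 5 lower (against 50.7%). Their median of -0.25 turned to 0.29 after quantile normalisation and 0.36 under total scaling. The chaperone gene Calr was 4.21-fold and the peptide trimming gene Erap1 2.13-fold higher, and the class I genes H2-T23 and H2-D1 were 3.58-fold and 2.29-fold lower. B2m, the light chain of class I molecules, was 1.52-fold lower and the peptide transporter gene Tap2 1.22-fold lower with the authors' size factors, but B2m (log2 0.07 and 0.02, not passing) and Tap2 (0.29 and 0.36, passing as higher) turned to the other side of 0 after quantile normalisation and under total scaling. Both lay below the median of all genes under total scaling, and B2m also after quantile normalisation.

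**Figure D2:**
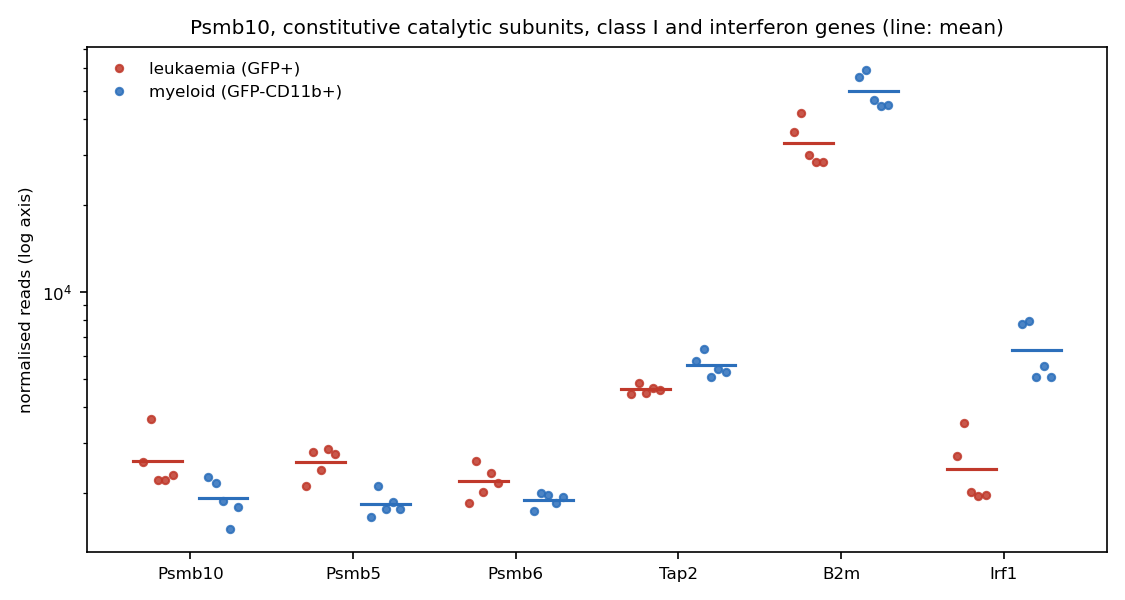
Normalised reads (log axis) of Psmb10, the constitutive catalytic subunits Psmb5 and Psmb6, and 3 class I or interferon genes, 1 point per library with a line at the mean, leukaemia (red) left of myeloid (blue). Psmb10 lies higher in leukaemia (1.34-fold) and Irf1 (2.57-fold) lies lower, while the lower B2m and Tap2 hold with the authors' size factors but not after quantile normalisation or under total scaling.

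The ATPases that unfold the substrate were all in the table, and all 6 were higher in leukaemia, from 1.16-fold to 1.64-fold. Psmc5 differed most, with 2320.5, 2579, 2098, 2493 and 2401 normalised reads in the leukaemia libraries, against 1343, 1612, 1426, 1448 and 1429.5 in the myeloid libraries. The groups were well apart (log2 difference 0.56, SE 0.0592, limma adjusted p = 1.09e-06). Psmc2 had the smallest log2 difference, with 2698, 2952, 2684, 3088 and 2909 normalised reads in the leukaemia libraries, against 2262, 2648, 2453, 2269 and 2677 in the myeloid libraries. Its lowest leukaemia library was only just above its highest myeloid library (log2 difference 0.18, SE 0.0609, limma adjusted p = 0.0109). Psmc4 was 1.41-fold, Psmc3 1.38-fold, Psmc1 1.19-fold and Psmc6 1.16-fold higher, with overlap for Psmc1 and Psmc6. A near-identical copy makes the value of Psmc1 uncertain. Psmc6 did not pass without leukaemia replicate 3 (limma adjusted p = 0.0549, log2 difference 0.17), and without myeloid replicate 1 its log2 difference was 0.12 (adjusted p = 0.0459).

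The non-ATPase subunits taken by name, which form the lid and the scaffold of the 19S particle, were higher in 8 of 9 cases. Sem1, a lid subunit without a matching name, is not among the 9. It was 1.62-fold lower with the authors' size factors and is given below with other proteasome-bound proteins. Psmd7, the lid partner of the deubiquitinase subunit, had 2562, 2752, 2726, 2791 and 2760.0 normalised reads in the leukaemia libraries, against 1264, 1239.9, 1161, 1154 and 1266 in the myeloid libraries. It was 2.23-fold higher, the most of any proteasome subunit, and the groups were far apart (log2 difference 0.90, SE 0.0473, limma adjusted p = 1.11e-09). Psmd3, another lid subunit, was 1.88-fold higher (3911 ± 187 normalised reads in leukaemia, against 2086 ± 80.2 in myeloid cells), and the scaffold subunits Psmd1 and Psmd2 were 1.67-fold and 1.48-fold higher. Psmd2, the docking subunit for ubiquitin shuttles, has a near-identical copy, so its value is uncertain. It had the most normalised reads of the members in both groups (7460.2 ± 268 normalised reads in leukaemia, against 5038 ± 268 in myeloid cells), on a scale not divided by length. Psmd12 (1.32-fold), Psmd6 (1.31-fold) and Psmd11 (1.30-fold) were higher without overlap, and Psmd14, the deubiquitinase of the lid, was 1.26-fold higher with overlap.

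Psmd8, a lid subunit, went the other way, with 2737, 3162, 2744, 3141 and 3105 normalised reads in the leukaemia libraries, against 3575, 4079, 3463, 3233 and 3563 in the myeloid libraries. Every leukaemia library was below every myeloid library, by a small margin (1.20-fold lower, log2 difference -0.23, SE 0.0663, limma adjusted p = 0.00517). This direction depended on the scaling: the log2 difference of Psmd8 was 0.18 after quantile normalisation and the log2 fold 0.37 under total scaling, both passing as higher. Against the median of all genes it lay below as deposited and under total scaling (0.43) and above after quantile normalisation (0.09). A ratio of normalised reads within a library does not depend on the size factor or the library total, but quantile normalisation can change it. The ratio of Psmd7 to Psmd8 within a library was 0.936, 0.870, 0.993, 0.888 and 0.889 in the leukaemia libraries, against 0.354, 0.304, 0.335, 0.357 and 0.355 in the myeloid libraries. The groups did not overlap, for a pair picked because it differed.

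Among the proteasome genes, the assembly chaperones Psmg2, Psmg1 and Psmg4 held the largest folds with the authors' size factors. The 4 Psmg genes, whose products pair up to build the alpha ring, were all higher in leukaemia without overlap, from 1.77-fold to 3.12-fold, with a median of 2.91-fold. Psmg2 had 653, 742, 836, 755 and 709 normalised reads in the leukaemia libraries, against 237, 298, 214, 175 and 259.5 in the myeloid libraries. Its leukaemia libraries were all more than double its highest myeloid library (log2 difference 0.85, SE 0.0654, limma adjusted p = 4.46e-08). Psmg1 was 3.03-fold higher (699.9 ± 118 normalised reads in leukaemia, against 231 ± 31.7 in myeloid cells), Psmg4 2.80-fold higher (491 ± 49.1 normalised reads in leukaemia, against 176 ± 44.9 in myeloid cells) and Psmg3 1.77-fold higher (508 ± 63.4 normalised reads in leukaemia, against 287 ± 48.4 in myeloid cells). Their rank among the members depended on the scaling. After quantile normalisation the log2 differences of Psmg2, Psmg1, Psmg4 and Psmg3 were 0.72, 0.67, 0.52 and 0.25. The members' median was then 0.66 and Psmd7 stood at 1.13. Under total scaling the log2 folds of these Psmg genes were 2.30, 2.23, 2.15 and 1.46, against 1.80 for Psmd7. The summed Psmg level was 2438 ± 223 normalised reads per leukaemia library and 929.5 ± 95 per myeloid library (SD, n = 5 each). Per kilobase the Psmg genes lay between 575 (Psmg3) and 885 (Psmg4) normalised reads in leukaemia and between 221 (Psmg1) and 325 (Psmg3) in myeloid cells, where the alpha subunits had 778 to 5173 in leukaemia and 621 to 4407 in myeloid cells.

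The chaperones of the ATPase ring differed among themselves. Psmd5 was 1.65-fold higher (2007 ± 265 normalised reads in leukaemia, against 1218 ± 169.8 in myeloid cells) and Psmd9 1.61-fold higher (577 ± 81.7 normalised reads in leukaemia, against 359 ± 65.1 in myeloid cells), both without overlap. A predicted gene on the opposite strand, Gm26745, covers 25.5% of the exon bases of Psmd9, and the strand setting of the counting is not known. Psmd10, the oncoprotein gankyrin, had 756, 794, 655, 813 and 722 normalised reads in the leukaemia libraries, against 789, 921, 937, 801 and 951 in the myeloid libraries. The groups overlapped and the difference was small (1.18-fold lower, log2 difference -0.15, SE 0.0576, limma adjusted p = 0.0231). It did not pass without leukaemia replicate 3 (adjusted p = 0.0657) or 5 (0.0501), or without myeloid replicate 3 (0.0527) or 5 (0.0576), and it was lower after quantile normalisation too (log2 difference -0.21, adjusted p = 0.00416). Against the median of all genes, Psmd10 stood just above as deposited (-0.15 against -0.16) and below after quantile normalisation (-0.21 against 0.09). Under total scaling its log2 fold was 0.41, which passed as higher but lay just below the median of all genes in that fit, 0.43.

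The activators, which cap the core in place of the 19S particle, went both ways. Psme3, the nuclear activator PA28 gamma, had 5017, 5248, 5239.5, 5629.9 and 5518 normalised reads in the leukaemia libraries, against 3515, 4129.7, 3701, 4046 and 3508 in the myeloid libraries. It was 1.41-fold higher in leukaemia and the groups did not overlap (log2 difference 0.44, SE 0.0609, limma adjusted p = 1.29e-05). Psme4, the activator PA200, had 3471, 3397, 3526, 3399 and 3031 normalised reads in the leukaemia libraries, against 3918, 4481, 4445, 4153 and 3989 in the myeloid libraries. It was 1.25-fold lower and again the groups did not overlap (log2 difference -0.28, SE 0.0587, limma adjusted p = 0.000545), but it passed as higher after quantile normalisation (log2 difference 0.18) and under total scaling (0.32, below that fit's median of all genes). The ratio of Psme3 to Psme4, free of the size factor and chosen after the values were seen, was 1.45, 1.54, 1.49, 1.66 and 1.82 in leukaemia, against 0.897, 0.922, 0.833, 0.974 and 0.879 in myeloid libraries. Psme3 was thus the more read of the pair in each leukaemia library and the less read in each myeloid library, on a scale not divided by length.

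Psme2b had 912, 1207, 1043, 756 and 892 normalised reads in the leukaemia libraries, against 1512, 1457, 1222, 1198 and 1421 in the myeloid libraries. It was 1.42-fold lower (log2 difference -0.36, SE 0.0835, limma adjusted p = 0.00115), with 1 leukaemia library inside the myeloid range, and it was lower after quantile normalisation too (log2 difference -0.32, adjusted p = 0.00418). Under total scaling its log2 fold was 0.14, not passing and below the median of all genes in that fit. Its longest transcript is 99.4% identical to one of Psme2 over 94.9% of its length, and reads of the interferon-induced activator Psme2 may be counted in it, so the value is uncertain. Psmf1, the proteasome-binding protein PI31, had 802, 946, 886, 904 and 780.2 normalised reads in the leukaemia libraries, against 809, 669, 628, 560.1 and 644 in the myeloid libraries. The groups overlapped through myeloid replicate 1 (1.30-fold higher, log2 difference 0.24, SE 0.0644, limma adjusted p = 0.00283). Psmc3ip, the gene that only shares the name, had 620.1, 702, 655, 788 and 776 normalised reads in the leukaemia libraries, against 87.5, 233, 115, 159 and 129 in the myeloid libraries. It was 4.90-fold higher (log2 difference 1.08, SE 0.0826, limma adjusted p = 4.03e-08), and exons of Mlx on the opposite strand cover 21.2% of its exon bases.

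**Figure D3:**
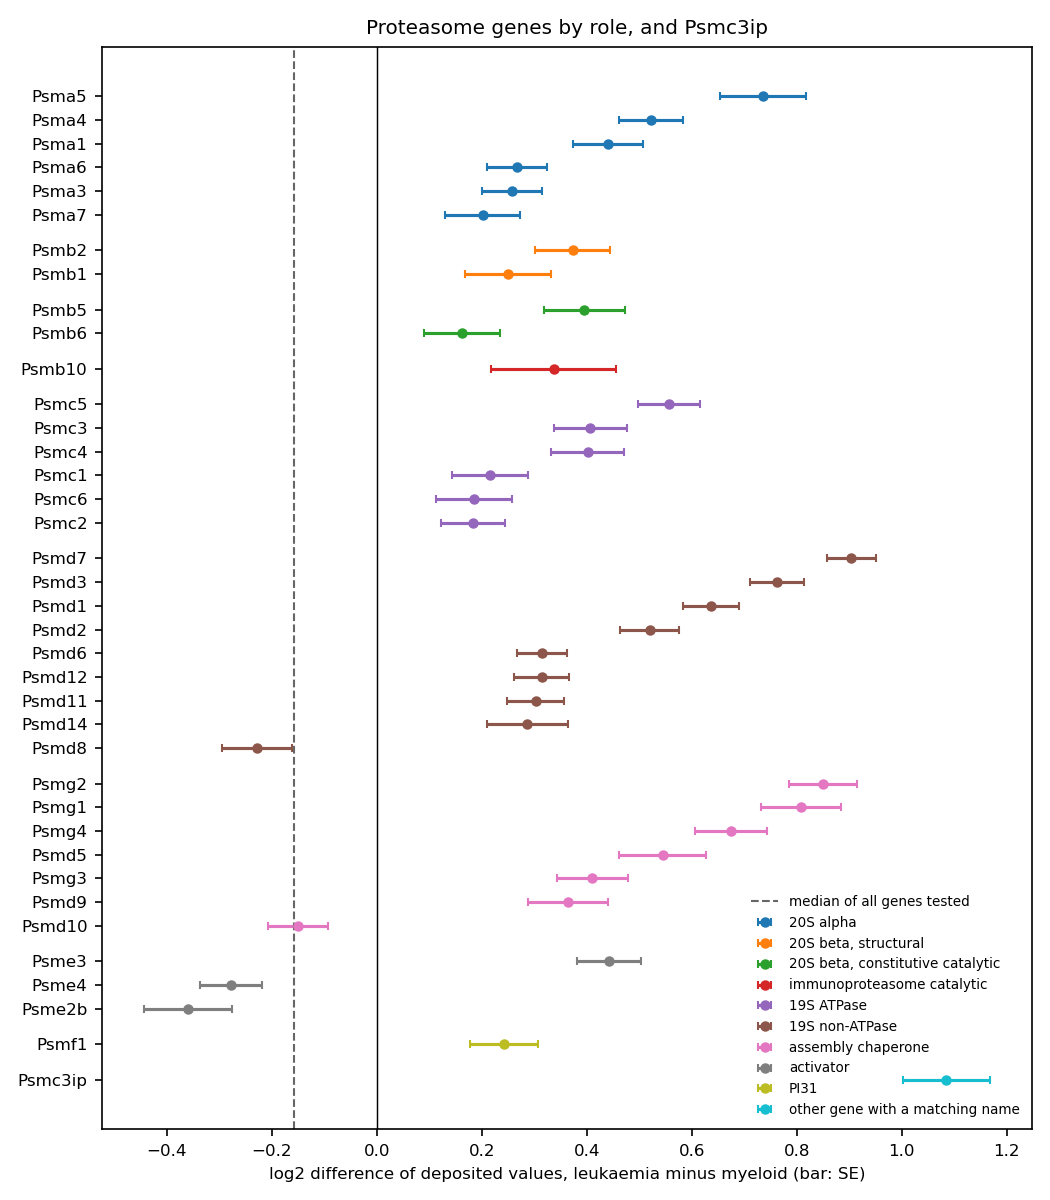
Log2 difference of the deposited values, leukaemia minus myeloid, with its SE for each of the 37 proteasome genes tested and Psmc3ip, grouped and coloured by role, with a dashed line at the median of all genes tested (-0.16). Core, ATPase and Psmg genes all lie above 0, and Psmd8, Psmd10, Psme4 and Psme2b lie below it with the authors' size factors, while under total scaling all 4 are above 0 but below the median of all genes, and after quantile normalisation Psmd8 and Psme4 are above both.

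Other proteins that bind the proteasome were read from a separate list. Of its 8 tested genes 6 were higher (against 49.1% of all genes) and 2 lower (against 50.7%). Usp14, the deubiquitinase that docks on the 19S particle, had 3585, 3328, 3556, 3664 and 3356 normalised reads in the leukaemia libraries, against 1087, 1392, 1418, 1125 and 1363 in the myeloid libraries. It was 2.74-fold higher, more than any subunit (log2 difference 1.17, SE 0.0659, limma adjusted p = 2.25e-09). Ecpas, the adaptor that clamps core and 19S particle together, was 1.98-fold higher (8442 ± 800.5 normalised reads in leukaemia, against 4270.4 ± 419.9 in myeloid cells). Sem1, a small lid subunit, was 1.62-fold lower, and did not pass after quantile normalisation (adjusted p = 0.0726) or under total scaling (0.632). Akirin2, which brings proteasomes into the nucleus, was 1.38-fold lower with the authors' size factors and after quantile normalisation (log2 difference -0.36, adjusted p = 1.87e-05), and under total scaling had a log2 fold of 0.17, not passing and below the median of all genes in that fit.

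Genes of factors linked to proteasome transcription were mostly lower in leukaemia. Of 8 tested genes 7 were lower in leukaemia (against 50.7% of all genes) and 1 higher (against 49.1%), with a median log2 difference of -0.98. After quantile normalisation 6 were lower (against 41% of all genes, median -0.68), and under total scaling 5 (against 27.6%, median -0.57). Nfe2l2, which encodes the stress factor NRF2 that binds antioxidant response elements, was 3.92-fold lower (2055 ± 85.1 normalised reads in leukaemia, against 8052 ± 441 in myeloid cells), and Bach1, a repressor at the same elements, was 3.36-fold lower. Nfya, a CCAAT-binding subunit, was 1.26-fold higher with overlapping groups (log2 difference 0.31, and 0.49 without myeloid replicates 2 and 4). With every annotated gene counted as a test, Nfya did not pass (limma adjusted p = 0.0942). Nfe2l1, known for raising subunit genes when the proteasome is inhibited, is not analysed here. In the list of ubiquitin genes and shuttles 7 of 12 were higher (against 49.1% of all genes) and 5 lower (against 50.7%). After quantile normalisation 3 were lower (against 41% of all genes), and under total scaling also 3 (against 27.6%). Ubqln4, a shuttle to the proteasome, was 2.19-fold higher, and Zfand2b, another proteasome-binding protein, was 3.35-fold lower.

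Set among all 8079 genes tested, the members were mostly on the higher side but not far out on it. Of all genes tested, 88.0% had a lower log2 difference than Psmd7 and 44.3% a lower one than Psme4. Among genes that passed as higher, the median log2 difference was 0.40 over the 34 members and 0.57 over all 3965 genes. A higher call with a log2 difference of at least 0.5 was made for 12 of the 38 members (11 without Psmc3ip), against 28.5% of all genes. A log2 difference of at least 1 with an adjusted p under 0.05 was found for 27.7% of all genes, and among the members for Psmc3ip only. This holds for the deposited values. In normalised reads the folds of Psmg2, Psmg1, Psmg4 and Psmd7 were 3.12, 3.03, 2.80 and 2.23. After quantile normalisation Psmd7 (1.13), Psmd3 (1.13), Psmd2 (1.06) and Psmd1 (1.04) were over 1, and Psmc3ip (0.965) was not. Under total scaling the members' median itself was 1.1. The share of all genes over 1 was not taken under those scalings. The median of the members stood 0.53 above the median of all genes as deposited, 0.57 above it after quantile normalisation and 0.67 above it under total scaling. The table holds few genes near 0, so its median depends on which side of 0 has a few more genes, and with no filter on low values it was 0.15, which the members' median exceeded by 0.21. Total scaling moved the median of all genes itself, from -0.21 with the size factors to 0.43, so directions are read relative to that median. Above it lay 35, 36 and 34 of the 38 members as deposited, after quantile normalisation and under total scaling. As deposited, the 35 included Psmd10, which was called lower but stood just above the median (-0.15 against -0.16). The calls in each direction were 36 higher (against 47% of all genes) and 2 lower (against 41%) after quantile normalisation, and 37 higher (against 57.2%) and 0 lower (against 27.6%) under total scaling. Counting every annotated gene as a test, since the table holds selected genes, left 27 members higher (against 44.2% of all genes) and 3 lower (against 46.3%). Psma7, Psmb1, Psmb6, Psmb10, Psmc1, Psmc2, Psmc6 and Psmd10 then missed the threshold.

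**Figure D4:**
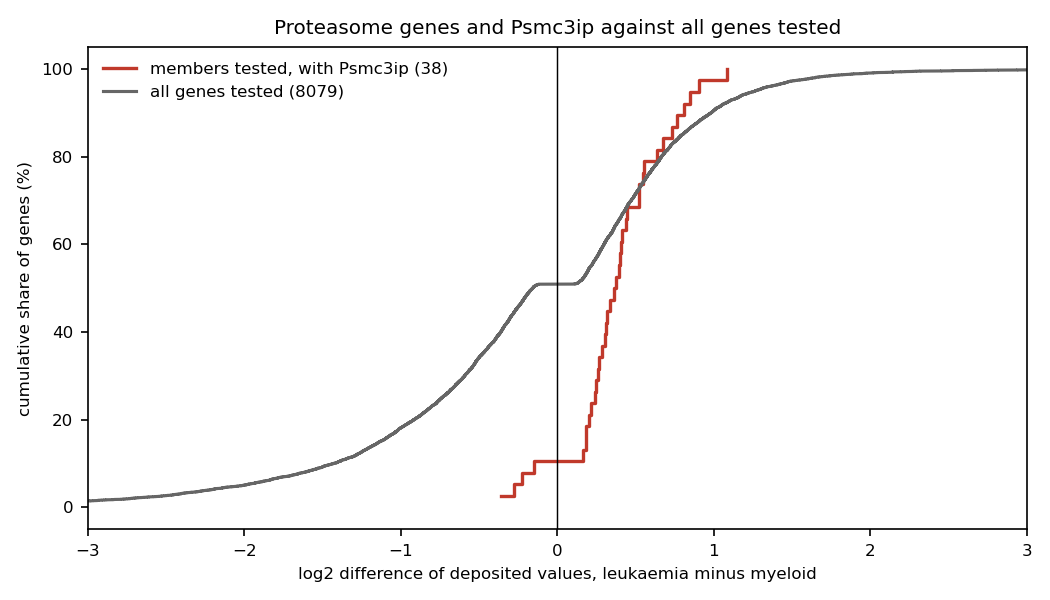
Cumulative share of genes (percent) by log2 difference of the deposited values, leukaemia minus myeloid, for the 38 members tested, Psmc3ip included (red), and all 8079 genes tested (grey). The members' curve is steep and lies right of the grey one up to about 0.5, with medians of 0.37 and -0.16, and the grey curve is flat near 0 where the table holds few genes.

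**Figure D5:**
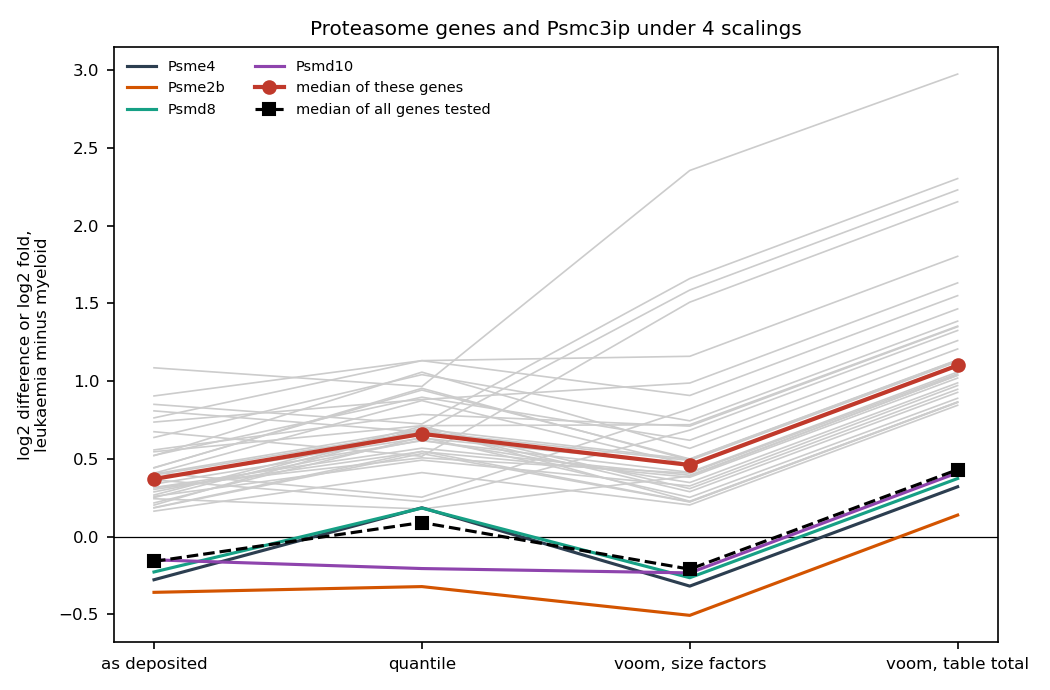
Log2 difference (first 2 settings) or log2 fold (voom) of each of the 38 members tested, Psmc3ip included, under 4 scalings, with grey lines for genes above 0 throughout, coloured lines for Psme4, Psme2b, Psmd8 and Psmd10, and the medians of the members (red) and of all genes tested (black). The members' median stays above that of all genes under each scaling, while Psme4 and Psmd8 change sign after quantile normalisation and all 4 coloured genes do so under total scaling, where they stay below the median of all genes.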

How the data were processed

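RNA was sequenced from sorted leukaemia and myeloid cells, 5 libraries each. The authors deposited 1 table, whose values are on a log2 scale after normalisation and variance stabilisation. The submitters' processing notes name HISAT2 (2.0.4 and 2.2.1) and DESeq2. Genome build, annotation, read counter and strand setting are not given in the sources used here. All libraries share the lowest value, 8.1823, taken as 0 reads, and inverting the stabilising function made 100.0% of low values (up to 300 reads, tolerance 0.1 read) whole, from which reads and normalised reads follow. The function's form is an assumption. The two-sided test was limma's (version 3.58.1 in R 4.3.3, prior variance following the mean) of leukaemia minus myeloid deposited values, over 8079 genes whose mean lay over 1 unit above the lowest value (145 normalised reads), with Benjamini-Hochberg adjustment at 0.05. The fit was tested on simulated data in which few genes differed. It called 52% of 50 genes changed 1.25-fold and 100% of those changed 1.5-fold, with 6 false calls among 8079 genes. In the real data nearly all genes passed, so the simulation cannot vouch for the calls made here. Alternatives changed the filter, the scaling (quantile normalisation, or voom on the recovered reads with the size factors or with total scaling), the prior, the block and the libraries, 1 at a time. Log2 differences understate the change of low genes, and folds are ratios of mean normalised reads. The table holds genes selected for a difference (highest unadjusted p 0.243).

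The members, the gene lists and the tests were chosen with earlier results of these data known. Each member is named, with all libraries for the extremes of each role group, the immunoproteasome and activator members, and up to 2 genes at each end of each other list, plus a few fixed interferon, class I and regulator genes. A few genes this rule names are not reported here. Lengths, exon overlaps and copies came from GENCODE M21, with copies found by BLAST (version 2.17.0, identity of at least 95% over at least 50% of the longest transcript). Of the members, 6 have such a copy (Psma4, Psma5, Psmb5, Psmc1, Psmd2 and Psme2b), so their reads may be shared, and 10 overlap exons of another gene. Ratios of Psmb8, Psmb9 and Psmb10 to the subunits they replace, and of Psme1 and Psme2 to Psme3, were planned and could not be made.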

Additional observations from a re-analysis of the deposited data

Results flagged for a closer look

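Within the 5 libraries of a group, 1 library stood apart from the others in 6 of 78 sets of values, by Dixon's test at its 95% value of 0.71, where chance flags about 1 set in 20. Psmd7 was low in leukaemia replicate 1 with 2562 normalised reads, against 2726 to 2791 in the other libraries of its group (gap over range 0.725). Psme4 was low in leukaemia replicate 5 with 3031 normalised reads, against 3397 to 3526 in the other libraries of its group (gap over range 0.751). Psmc3 and Psma6 were high in myeloid replicate 2: Psmc3 had 3962 normalised reads, against 3167 to 3343 in the other libraries of its group (gap over range 0.761), and Psma6 had 3600.3 normalised reads, against 3007 to 3146 in the other libraries of its group (gap over range 0.752). Psmd12 was low in myeloid replicate 1 with 1314 normalised reads, against 1506 to 1588 in the other libraries of its group (gap over range 0.713). Psma8 was read in leukaemia replicate 1 alone of its group, with 5.41 normalised reads from 7 reads (gap over range 1). Psmd7, Psme4, Psmc3, Psma6 and Psmd12 kept their call and direction without the library named.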

How the results depend on the processing

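Of the 38 members tested, 27 kept their direction and their side of the threshold in all 19 other settings that could test them. The count of higher members was 34 with no filter on low values, with voom on the recovered size factors and with no trend in the prior variance, 36 after quantile normalisation, 37 under total scaling, 28 of 32 with a stricter filter and 33 without myeloid replicates 2 and 4. The count of lower members was 4 as reported, 2 after quantile normalisation and 0 under total scaling. For all genes, 2415 were higher with the stricter filter, which tests fewer genes, and 2232 lower under total scaling, against 3965 and 4097. Leaving out 1 library at a time gave 33 to 34 higher and 3 to 4 lower members, and 3881 to 3921 higher and 3996 to 4038 lower genes in all. After quantile normalisation the log2 differences of Psme4 (0.18), Psmd8 (0.18), Tap2 (0.29) and B2m (0.073) turned positive. Under total scaling so did the log2 folds of Psme4 (0.32), Psme2b (0.14), Psmd8 (0.37), Psmd10 (0.41), Akirin2 (0.17), Tap2 (0.36) and B2m (0.024), where the median of all genes moved up to 0.43, above each of these values. Counting each of the 55450 annotated genes as a test, an alternative chosen after seeing the data, 8 members no longer passed: Psma7, Psmb1, Psmb6, Psmb10, Psmc1, Psmc2, Psmc6 and Psmd10. With a replicate block, the counts were 34 higher and 4 lower members and no member changed its call. The deviations of same-numbered libraries correlated across genes at 0.13, 0.23, 0.32, 0.29 and -0.02. Of the 5 leukaemia libraries, 2 correlated best with their own number. This does not settle whether equal numbers mark pairs, so the main fit took none and the block fit is given beside it.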
